A study of Mus musculus with 6 samples.

Results

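The suppressors of cytokine signalling, Cish and Socs1 to Socs7, and the kinase genes Pim1 and Pim2 were followed in mouse CD8+ T cells, the killer lymphocytes of the adaptive immune system. These 10 genes were taken by symbol, as 2 gene families, from the 14481 genes of the deposited count table, and all 10 were present and tested. Sorted wild-type (WT) CD8+ T cells were stimulated for 1 day on coated anti-CD3 (1 µg/ml) with interleukin 2 (0.1 µg/ml) and soluble anti-CD28 (1 µg/ml), after which they received conditioned medium (CM) from astrospheres. RNA was taken on day 3, after 2 days in CM. One group had CM of pSTAT3+ astrospheres (STAT3+ CM, 3 libraries), and it was set against a group with CM of pSTAT3- astrospheres (STAT3- CM, 3 libraries), where pSTAT3 stands for STAT3, a transcription factor, in its phosphorylated and active state. The media were thus set apart by the label of the cells that made them, and what differed in the media themselves is not given. All 6 samples shared the WT genotype, the stimulation and the added interleukin 2. How the astrospheres were made, and whether replicates were separate mice or cultures, is not given in the labels, so p-values here reflect the spread between these 6 samples, which may be technical. No library of cells without CM was analysed here.

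SOCS proteins are the feedback brakes of cytokine receptors. A cytokine makes Janus kinases (JAKs) phosphorylate STAT transcription factors, the STATs switch on Cish and some Socs genes, and the new proteins bind the receptor or the kinase and recruit a ubiquitin ligase through their SOCS box. CIS, the product of Cish, and SOCS2 are known as products of interleukin 2 and STAT5 signalling, SOCS1 as a product of interferon signalling and SOCS3 as the feedback inhibitor of STAT3 and the receptor chain gp130, while SOCS4 to SOCS7 are less tied to cytokine induction. PIM kinases are serine and threonine kinases made under the same STATs. They are active without phosphorylation by an upstream kinase, and they favour survival, growth and cell division in activated lymphocytes. Neither their protein nor their activity was measured here.

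The start regions of 3 members are shown because they hold motifs of the factors that textbooks name as inducers of these genes. RefSeq promoter windows (GRCm38.p6) were matched for 6 of the 10 members, Cish, Socs1, Socs3, Socs4, Pim1 and Pim2, and the 250 bases before and 20 after each start were searched on both strands. The STAT motif TTCNNNGAA, which reads the same on both strands, and GAAANNGAA, the core of the motif that interferon regulatory factors bind, were searched for. Capitals mark the matches in these windows, which run 5′ to 3′ on the strand of the gene, Cish at chr9:107296409-107296678 (+), Socs1 at chr16:10785517-10785786 (-) and Socs3 at chr11:117969347-117969616 (-).
Cish: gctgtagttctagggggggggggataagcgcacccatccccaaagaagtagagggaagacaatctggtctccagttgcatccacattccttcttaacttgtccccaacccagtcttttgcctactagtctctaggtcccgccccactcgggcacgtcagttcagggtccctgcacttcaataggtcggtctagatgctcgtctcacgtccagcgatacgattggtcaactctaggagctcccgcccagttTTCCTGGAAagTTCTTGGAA
Socs1: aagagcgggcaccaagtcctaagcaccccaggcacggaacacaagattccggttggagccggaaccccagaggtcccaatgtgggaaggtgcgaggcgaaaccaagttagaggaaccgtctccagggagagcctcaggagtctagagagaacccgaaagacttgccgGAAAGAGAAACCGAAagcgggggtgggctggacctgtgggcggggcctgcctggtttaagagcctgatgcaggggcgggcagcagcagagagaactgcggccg
Socs3: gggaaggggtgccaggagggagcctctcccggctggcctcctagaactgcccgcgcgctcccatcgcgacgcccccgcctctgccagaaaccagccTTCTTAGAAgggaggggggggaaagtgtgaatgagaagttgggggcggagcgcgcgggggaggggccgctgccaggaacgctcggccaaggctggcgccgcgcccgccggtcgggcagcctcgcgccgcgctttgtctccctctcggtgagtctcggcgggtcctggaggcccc
The Cish window held 2 STAT motifs, TTCCTGGAA at bases 1 to 9 and TTCTTGGAA at bases 12 to 20 after the annotated start. The Socs3 window held 1, TTCTTAGAA, at -154 to -146 relative to the start. Among 32817 windows of this length in the table, 7.58% held at least 1 such motif and 0.369% held at least 2. The Socs1 window held the interferon motif in 2 overlapping matches, GAAAGAGAA at -83 to -75 and GAAACCGAA at -77 to -69. At least 1 match stood in 7.75% of all windows and at least 2 in 0.545%. The windows of Socs4 and Pim2 and both windows of Pim1 held neither motif. The stretch searched and 1 of the motifs were changed after matches had been seen. The first search ended at the start, and in those 250 bases the Cish window held 0 STAT motifs, the Socs3 window held the same 1, and 7.02% of all windows held at least 1 and 0.317% at least 2. The search was extended by 20 bases with both Cish matches already known, so their presence was not found by a preset search. The interferon motif was first searched with a further A at its end. In the first 250 bases 2.97% of windows held that form at least once and 0.177% at least 2 times. In 270 bases the shares were 3.19% and 0.192%, and the Socs1 window held 2 matches to that form in either stretch. A match is a string of letters in this stretch and not a measured binding site.

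Every member was well covered by reads. Total counts ran from 43346089 to 53630514 in STAT3+ CM, against 43551518 to 47569899 in STAT3- CM, and the member with the fewest reads in any library, Socs5, had 568 counts in STAT3+ CM replicate 1. Levels are given in CPM, counts relative to the library total after scaling by a TMM factor. The 10 markers of CD8 T cell identity, all in the table, summed to 3369 to 3987 CPM without TMM scaling in STAT3+ CM, against 3227 to 3702 in STAT3- CM. Some markers of other cells were not in the count table, where the lowest gene total was 40. They included Cd79a, Ms4a1 and Pax5 of B cells, Csf1r and Fcgr1 of macrophages and Flt3, Xcr1, Clec9a and Siglech of dendritic cells. Markers of NK cells (4) summed to 117 to 128 CPM in STAT3+ CM, against 110 to 137 in STAT3- CM. Those of CD4 T cells (3) summed to 11.6 to 17.9 CPM in STAT3+ CM, against 8.41 to 24.7 in STAT3- CM. Cd79b of B cells had 10.5 to 12.2 CPM in STAT3+ CM, against 7.39 to 11.3 in STAT3- CM. Lyz2, Adgre1 and Cd14 of macrophages summed to 0.424 to 1.20 CPM in STAT3+ CM, against 0.850 to 1.83 in STAT3- CM. In each of these the media overlapped. The 2 dendritic cell markers measured, Itgax and Zbtb46, summed to 8.25 to 14.62 CPM in STAT3+ CM, against 14.65 to 21.1 in STAT3- CM. The groups thus all but touched. All these marker sums were taken without TMM scaling, whose factors ran from 0.960 to 1.06. The part of such cells in the members' values was not tested. In bulk samples such as these, fewer cells of a type and less RNA per cell cannot be told apart. Over all genes, STAT3- CM replicate 3 stood at one end of the first principal component (score 39.6) and STAT3+ CM replicate 1 at one end of the second (-38.1).

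None of the 10 members passed the threshold between the media. In edgeR's quasi-likelihood fit, with p-values adjusted by Benjamini and Hochberg over 14319 genes, 0 of 10 members had an adjusted p under 0.05, where 0% of all genes did, and 0 of 10 had an unadjusted p under 0.05, where 3.64% did. DESeq2, which called 0.335% of all genes, also called 0 of the 10, as did limma-voom in its plain and its quality-weighted form. In 0 of the 10 members were the libraries of one medium all above or all below those of the other, which was so in 7.95% of all genes (3.78% higher and 4.18% lower in STAT3+ CM). The fitted log2 fold change, STAT3+ CM minus STAT3- CM, was positive for Socs1, Socs3, Socs6 and Pim1 and negative for the other 6, with a median of -0.078 beside 0.00076 over all genes. The median size of the change, whatever its sign, was 0.15 for the members and 0.13 for all genes, and the adjusted p was 0.989 for 9 members and 0.999 for Socs6.

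**Figure D1:**
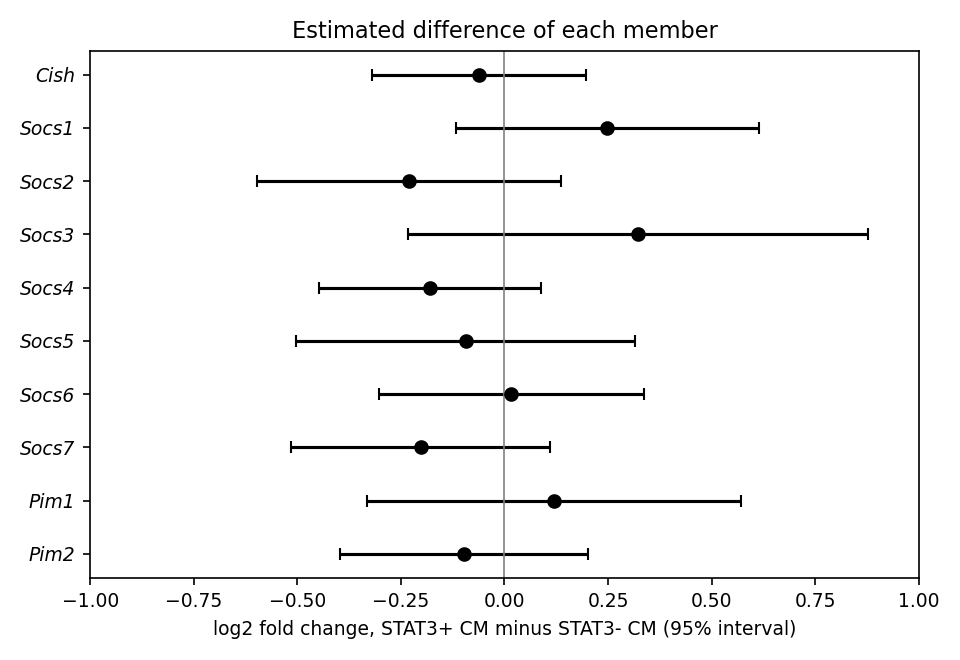
Fitted log2 fold change of each member, STAT3+ CM minus STAT3- CM (x axis), from edgeR's quasi-likelihood fit on 3 libraries per medium, with bars for the 95% interval. Each interval holds 0, and the intervals are narrowest for Cish (-0.32 to 0.20) and widest for Socs3 (-0.23 to 0.88).

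The level of the members per transcript length, in CPM per kilobase (kb) of annotated exon, spanned a wide range and set the PIM kinases first. The exon lengths came from an annotation of another build, GRCm38, so that these levels rest on its transcript ends. Pim2 stood at 165 ± 24.6 CPM per kb in STAT3+ CM, against 177 ± 4.11 in STAT3- CM, and Pim1 at 111 ± 17.0 in STAT3+ CM, against 102 ± 30.4 in STAT3- CM (SD, n = 3 each). Over the 6 libraries Pim2 (139 to 189) and Pim1 (84.0 to 137) did not overlap in range by this length, although the gap between the lowest Pim2 and the highest Pim1 was small. By the longest coding transcript, 2698 bases for Pim1 in place of 3111, the highest Pim1 library lay within the range of Pim2. Cish followed with 39.3 ± 2.08 CPM per kb in STAT3+ CM, against 41.0 ± 2.55 in STAT3- CM, then Socs1 with 30.6 ± 6.25 in STAT3+ CM, against 25.7 ± 2.85 in STAT3- CM, and their ranges over the 6 libraries, 37.6 to 43.8 and 22.5 to 35.7, were apart. Next came Socs2 (7.07 to 11.3), Socs3 (5.51 to 12.2) and Socs4 (7.12 to 9.30), which overlapped and cannot be ordered. Socs7 (5.06 to 6.82) lay below Socs2 and Socs4 and overlapped with Socs3. Socs5 (2.64 to 3.85) and Socs6 (2.53 to 3.07) were lowest and overlapped with each other. The order of the means was the same when the longest coding transcript took the place of all exons.

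Cish and Socs1 together made up most of the SOCS family transcripts. Of the summed CPM per kb of the 8 SOCS genes, they took 65.2% ± 1.23 in STAT3+ CM, against 63.2% ± 2.99 in STAT3- CM (SD, n = 3 each). Cish alone took 36.8% ± 2.05 in STAT3+ CM, against 38.9% ± 1.94 in STAT3- CM, and Socs1 took 28.4% ± 3.28 in STAT3+ CM, against 24.4% ± 2.33 in STAT3- CM. Socs3, the member known for STAT3, took 8.87% ± 1.66 in STAT3+ CM, against 7.30% ± 2.28 in STAT3- CM. The libraries of the media overlapped in each of these shares, for Socs1 with 24.6% to 30.5% in STAT3+ CM, against 21.7% to 25.7% in STAT3- CM. The share of Socs2 was the exception among the 8, at 8.59%, 7.58% and 7.36% in STAT3+ CM, against 8.88%, 10.5% and 8.66% in STAT3- CM, a gap that was narrow and was not tested.

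**Figure D2:**
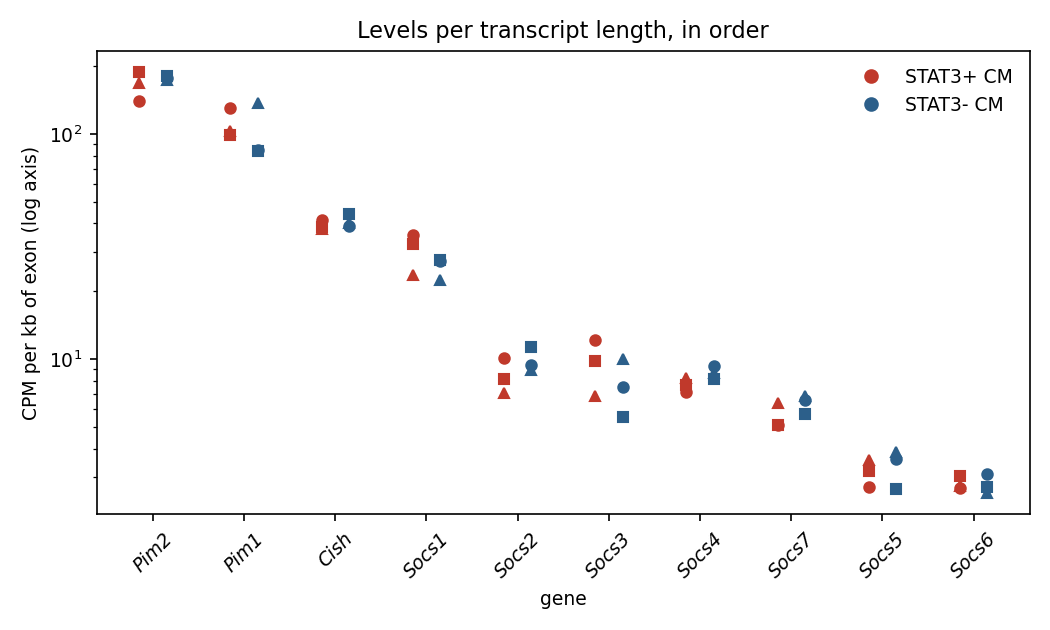
CPM per kb of exon (y axis, log scale) for the 10 members in order of their mean, with STAT3+ CM points left and STAT3- CM points right, a circle for replicate 1, a square for replicate 2 and a triangle for replicate 3. Pim2 and Pim1 lie above 80 in every library and Socs5 and Socs6 below 4, and Socs2, Socs3 and Socs4 share a range.

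Cish was the steadiest member. It stood at 152, 141 and 137 CPM in STAT3+ CM replicates 1, 2 and 3, and at 142, 160 and 147 CPM in STAT3- CM. The libraries of the media were interleaved, and the log2 fold change was -0.06 (SE 0.12), with a 95% interval of 0.801-fold to 1.15-fold. Its SD within groups on the log2 scale was 0.08, which was larger than that of only 5.08% of all genes tested. Those genes include many of far lower level, and Cish was not ranked among genes of like level. Socs2, whose protein is known to restrain growth hormone and STAT5 signalling, stood at 27.1, 22.1 and 19.1 CPM in STAT3+ CM, against 25.2, 30.5 and 24.2 CPM in STAT3- CM. Each STAT3- CM library lay above STAT3+ CM replicates 2 and 3, while STAT3+ CM replicate 1 lay above STAT3- CM replicates 1 and 3. The log2 fold change of Socs2 was -0.23 (SE 0.17), and with 1 library left out it ran from -0.38 without STAT3+ CM replicate 1 (unadjusted p = 0.049, adjusted p = 1.00) to -0.12 without STAT3+ CM replicate 3, with -0.13 without STAT3- CM replicate 2. With STAT3+ CM replicate 1 and STAT3- CM replicate 3 both dropped it was -0.44 (unadjusted p = 0.0218, adjusted p = 0.579).

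Socs1 and Socs3, the members whose proteins inhibit JAK activity directly, had the largest positive fold changes of the 10. Socs1 stood at 104, 94.3 and 68.7 CPM in STAT3+ CM, against 78.9, 80.4 and 65.3 CPM in STAT3- CM. STAT3+ CM replicates 1 and 2 were the highest of all, while replicate 3 lay below STAT3- CM replicates 1 and 2. The log2 fold change was 0.25 (SE 0.16), with a 95% interval of 0.922-fold to 1.53-fold. It was 0.40 without STAT3+ CM replicate 3 (unadjusted p = 0.0203, adjusted p = 0.486), 0.12 without STAT3+ CM replicate 1, and 0.033 when STAT3+ CM replicate 1 and STAT3- CM replicate 3 were both dropped. The libraries with the highest Socs1, STAT3+ CM replicates 1 and 2, had the lowest scores on the second principal component, -38.1 and -19.2, and the part of this axis in the Socs1 values was not tested.

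Socs3 had the largest fold change of the 10 and the largest spread. It stood at 31.1, 25.0 and 17.4 CPM in STAT3+ CM, against 19.1, 14.1 and 25.6 CPM in STAT3- CM. The highest library was of STAT3+ CM and the lowest of STAT3- CM, but STAT3- CM replicate 3 ranked second and STAT3+ CM replicate 3 second lowest. The log2 fold change was 0.32 (SE 0.25), with a 95% interval of 0.851-fold to 1.84-fold, so a rise of up to 1.84-fold lay within what these libraries allow. Its SD within groups, 0.43 on the log2 scale, was above that of 81.5% of all genes. Without STAT3- CM replicate 3 the log2 fold change was 0.56 (unadjusted p = 0.0403, adjusted p = 0.734), and without STAT3+ CM replicate 1 it was 0.11, and with both dropped it was 0.35.

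The remaining SOCS genes, Socs4 to Socs7, varied less between libraries than Socs3. Socs4, whose protein is known to act on the epidermal growth factor receptor, stood at 48.9, 52.9 and 56.7 CPM in STAT3+ CM, against 64.0, 56.2 and 59.3 CPM in STAT3- CM. The media overlapped by a single pair of libraries, STAT3+ CM replicate 3 and STAT3- CM replicate 2, and the log2 fold change was -0.18 (SE 0.12). Socs7, whose protein is known to bind signalling adaptors, stood at 35.5, 35.8 and 44.9 CPM in STAT3+ CM, against 46.1, 39.8 and 47.9 CPM in STAT3- CM. Its log2 fold change was -0.20 (SE 0.14), and with 1 library left out it ran from -0.32 without STAT3+ CM replicate 3 (unadjusted p = 0.0462, adjusted p = 0.525) to -0.14 without STAT3+ CM replicate 1. It was -0.090 with STAT3+ CM replicate 1 and STAT3- CM replicate 3 both dropped. Socs5, a relative of Socs4, stood at 12.5, 14.7 and 16.5 CPM in STAT3+ CM, against 16.7, 12.3 and 17.9 CPM in STAT3- CM (log2 fold change -0.09, SE 0.18). Socs6, a relative of Socs7, had the smallest fold change, at 16.5, 18.5 and 16.7 CPM in STAT3+ CM, against 18.9, 16.6 and 15.5 CPM in STAT3- CM (0.017, SE 0.14). The sign of the Socs5 and Socs6 values turned under some settings, Socs6 under scaling by library totals alone (-0.025), where the median over all genes was -0.042.

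Pim1 and Pim2 differed from each other in how far they varied. Pim1 stood at 405, 309 and 320 CPM in STAT3+ CM, against 264, 261 and 426 CPM in STAT3- CM. STAT3- CM replicate 3 was the highest library of all and the other STAT3- CM libraries were the lowest, with STAT3+ CM between them. The log2 fold change of Pim1 was 0.12 (SE 0.20). Without STAT3- CM replicate 3 it was 0.39 (unadjusted p = 0.0239, adjusted p = 0.631), and it turned to -0.012 without STAT3+ CM replicate 1 and -0.0092 without STAT3- CM replicate 2. Pim2 stood at 155, 210 and 187 CPM in STAT3+ CM, against 196, 202 and 193 CPM in STAT3- CM. The 3 STAT3- CM libraries lay within a narrow band between STAT3+ CM replicates 3 and 2, and replicate 1 of STAT3+ CM was the lowest (log2 fold change -0.10, SE 0.14, turning to 0.011 without that library). Pim3, the third PIM kinase gene and not among the 10, stood at 61.7, 92.0 and 80.9 CPM in STAT3+ CM, against 80.3, 66.9 and 60.7 CPM in STAT3- CM (0.17, SE 0.17). Per length it averaged 32.2 ± 6.30 CPM per kb in STAT3+ CM, against 28.6 ± 4.13 in STAT3- CM (SD, n = 3 each), below Pim1 and Pim2 in every library.

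**Figure D3:**
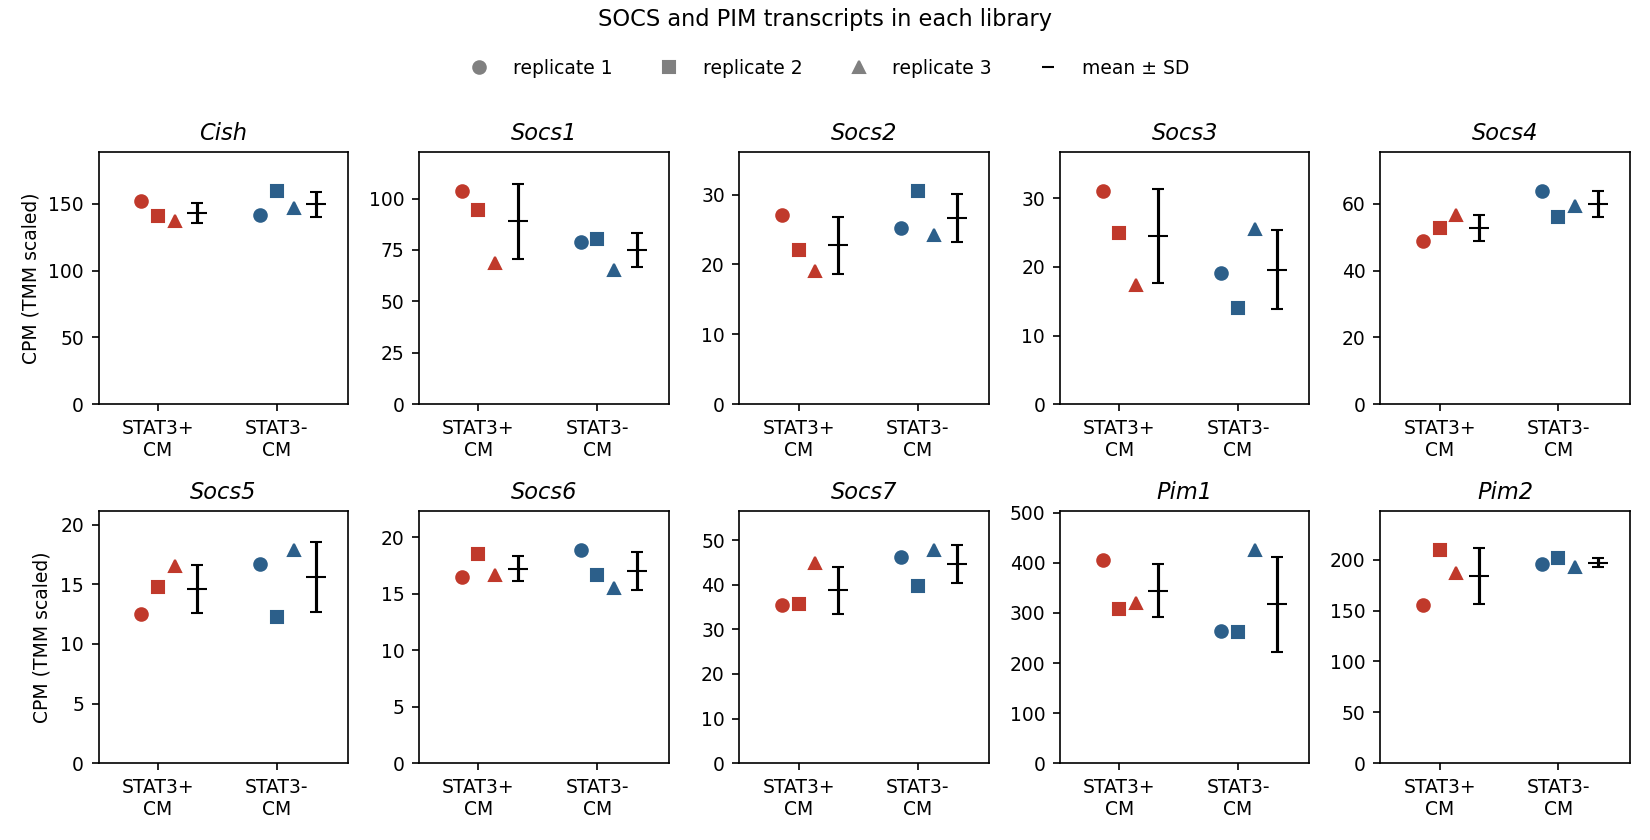
CPM of each member (y axes, from 0) in the 3 STAT3+ CM libraries, left in each panel, and the 3 STAT3- CM libraries, right, with the mean ± SD beside each group. The groups overlap in all 10 panels, and the separate high point of Pim1 in STAT3- CM is replicate 3, at 426 CPM.

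Some members were high or low in the same libraries of either medium. Relative to the mean of the 6 libraries, Pim1 was raised in STAT3+ CM replicate 1 (0.32 on the log2 scale) and STAT3- CM replicate 3 (0.39), and so was Socs3 (0.55 and 0.26). Socs4, Socs7 and Pim2 were lowest in STAT3+ CM replicate 1, at -0.20, -0.22 and -0.29. Stat3, which encodes the transcription factor itself, stood at 311, 198 and 272 CPM in STAT3+ CM, against 203, 240 and 426 CPM in STAT3- CM. The 3 libraries with the most Stat3, STAT3- CM replicate 3 and STAT3+ CM replicates 1 and 3, were the 3 with the most Pim1 and the 3 with the highest scores on the first principal component, 39.6, 16.3 and 6.12. The part of that axis in the Pim1 values was not tested.

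**Figure D4:**
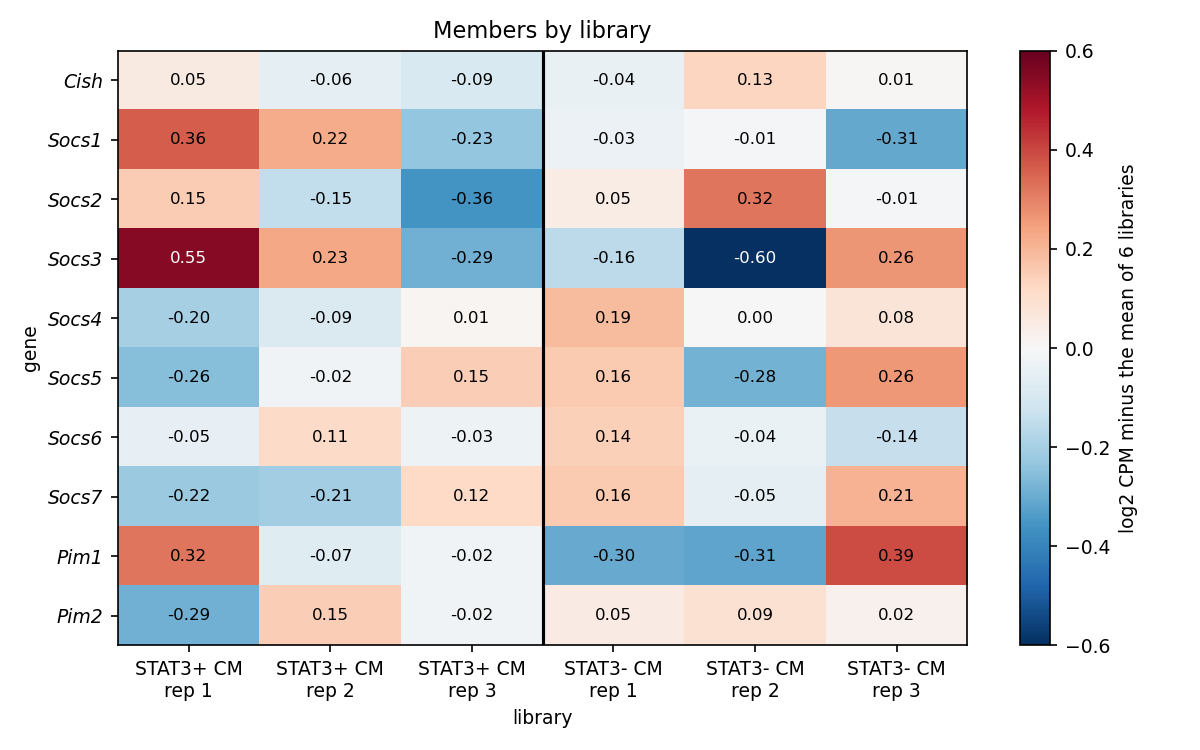
Log2 CPM of each member (rows) minus its mean over the 6 libraries (columns, STAT3+ CM left of the line and STAT3- CM right), with red above and blue below the mean. No row has one colour on each side of the line, and the Pim1 row is reddest in STAT3+ CM replicate 1 (0.32) and STAT3- CM replicate 3 (0.39).

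Ratios of 2 members within a library do not depend on how libraries were scaled, and they did not separate the media either. The log2 ratio of Cish to Socs3 counts, a STAT5-type against a STAT3-type feedback gene, was 2.29, 2.49 and 2.98 in STAT3+ CM, against 2.89, 3.51 and 2.52 in STAT3- CM. The ratio thus averaged 2.58 ± 0.35 in STAT3+ CM, against 2.97 ± 0.50 in STAT3- CM (SD, n = 3 each), with overlap. The log2 ratio of Socs1 to Socs3 averaged 1.88 ± 0.12 in STAT3+ CM, against 1.97 ± 0.58 in STAT3- CM. The log2 ratio of Cish to Socs2 averaged 2.67 ± 0.18 in STAT3+ CM, against 2.49 ± 0.11 in STAT3- CM. For Pim1 to Pim2 it averaged 0.90 ± 0.43 in STAT3+ CM, against 0.65 ± 0.43 in STAT3- CM. In none of the 4 ratios did the libraries of the media lie apart.

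Other genes with a like pattern were found by the smallest root mean square difference of centred log2 CPM over the 6 libraries, among 10777 other genes of at least 1 CPM. For Cish they were Actr1a (0.030), Ero1a (0.030) and Zfp961 (0.033), where the median gene differed by 0.19. For Socs3 they were Hint3 (0.12), Rasl11b (0.12) and Rpl22l1 (0.12), with a median of 0.43. For Pim1 they were Adprh (0.040), Ccpg1 (0.043) and Gstm4 (0.048), with a median of 0.33. Adprh stood at 146, 114 and 113 CPM in STAT3+ CM, against 92.1, 98.1 and 149 CPM in STAT3- CM, with the same highest pair of libraries as Pim1. With 6 libraries and so many genes, close matches are found for most patterns.

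The genes around the members were read from 6 lists, chosen with earlier results of these data known. EdgeR called 0 genes in each list in each direction, as it called 0 over all genes. Among 19 receptors upstream of JAKs 12 had positive and 7 negative values, with a median log2 fold change of 0.057, and 2 higher and 1 lower gene had an unadjusted p under 0.05, where 1.34% of all genes were higher and 2.30% lower at that p. Il9r, the interleukin 9 receptor, stood at 0.529, 0.697 and 0.795 CPM in STAT3+ CM, against 2.72, 2.66 and 2.06 CPM in STAT3- CM, with no overlap. Its log2 fold change was -1.86 (SE 0.29), with an adjusted p of 0.127 by edgeR, and DESeq2 called it lower (adjusted p = 7.55e-05), as did edgeR without STAT3- CM replicate 3 (adjusted p = 0.0419). Il4ra, the interleukin 4 receptor, had 191, 182 and 182 CPM in STAT3+ CM, against 144, 150 and 162 CPM in STAT3- CM, and Il10rb, a chain of the interleukin 10 receptor, had 65.4, 54.2 and 45.2 CPM in STAT3+ CM, against 42.7, 41.5 and 42.0 CPM in STAT3- CM. Neither pair of groups overlapped, with log2 fold changes of 0.28 (SE 0.11) and 0.38 (SE 0.15) and an adjusted p of 0.989 each. Il9r, Il4ra and Il10rb were named for the smallest p of this list, and groups did not overlap in 7.95% of all genes.

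Among the 11 JAK and STAT genes 2 had positive and 9 negative values, with a median of -0.091 that ran from -0.22 without STAT3- CM replicate 2 to 0.0059 without STAT3- CM replicate 3. Jak2, a kinase of many cytokine receptors, stood at 147, 162 and 206 CPM in STAT3+ CM, against 243, 197 and 214 CPM in STAT3- CM. Its log2 fold change was -0.34 (SE 0.15), the only one of the 11 with an unadjusted p under 0.05 (0.0462, adjusted p = 0.989). Stat5a, which carries the interleukin 2 signal to Cish, stood at 133, 137 and 172 CPM in STAT3+ CM, against 166, 172 and 185 CPM in STAT3- CM (-0.24, SE 0.14). Its partner Stat5b stood at 111 ± 17.1 CPM in STAT3+ CM, against 123 ± 32.3 CPM in STAT3- CM (-0.14, SE 0.19), and Stat3 had -0.16 (SE 0.27). The groups overlapped in each of these 4 genes.

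Other restraints on the pathway, 12 genes of phosphatases, PIAS proteins, adaptors and ubiquitin ligases, had 4 positive and 8 negative values and a median of -0.061, with 0 under an unadjusted p of 0.05. Pias3, known to restrain STAT3, stood at 10.6, 9.30 and 10.7 CPM in STAT3+ CM, against 11.3, 10.7 and 14.6 CPM in STAT3- CM (-0.26, SE 0.18), where the groups all but touched, at 10.65 CPM in the highest STAT3+ CM library and 10.73 CPM in the lowest STAT3- CM library. Sh2b3, an adaptor that damps JAK2, had -0.19 (SE 0.14) and Ptpn2, a JAK phosphatase, 0.14 (SE 0.13). The 6 genes of the ligase that the SOCS box recruits all had positive values, from 0.025 to 0.21, and 0 were under 0.05 before adjustment. Their median was 0.14, where 7189 of all 14319 genes were positive with a median of 0.00076. All were measured in the same 6 libraries, so their signs are not separate observations. That median was 0.037 without STAT3- CM replicate 3, 0.065 without STAT3+ CM replicate 2 and 0.21 without STAT3+ CM replicate 3. Elob, an elongin that binds the SOCS box, stood at 180 ± 28.4 CPM in STAT3+ CM, against 156 ± 12.3 CPM in STAT3- CM (0.21, SE 0.14), its partner Eloc had 0.16 (SE 0.12) and the RING protein gene Rnf7 had 0.16 (SE 0.17), each with overlap between the media.

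Of 21 other genes that cytokines induce through STATs 12 had positive and 9 negative values, with a median of 0.040. Lif, a cytokine that signals through gp130 and STAT3 and is known to induce Socs3, stood at 94.9, 94.3 and 98.4 CPM in STAT3+ CM, against 54.0, 60.5 and 46.6 CPM in STAT3- CM. Its groups did not overlap (log2 fold change 0.84, SE 0.13), but its adjusted p was 0.127 by edgeR, while DESeq2 called it higher (adjusted p = 2.12e-05). Its receptor gene Lifr was not tested, and Il6st, which encodes gp130, stood at 37.1 ± 6.10 CPM in STAT3+ CM, against 33.3 ± 5.22 CPM in STAT3- CM. Prf1 (0.60, SE 0.20, unadjusted p = 0.0127) and Gzmb (0.42, SE 0.20), the cytotoxic genes perforin and granzyme B, came next by p, with an adjusted p of 0.989 each. Their groups did not overlap either, which was so in 7.95% of all genes. Lif, Prf1 and Gzmb were named for the smallest p of this list. In it 2 higher and 0 lower genes had an unadjusted edgeR p under 0.05, where 1.34% of all genes were higher and 2.30% lower. Among Pim3 and 11 substrates of PIM kinases 5 had positive and 7 negative values, with a median of -0.033 and 0 under an unadjusted p of 0.05. Cdkn1a, the cell cycle inhibitor p21, had 0.26 (SE 0.19), Foxo3 -0.21 (SE 0.15) and the kinase gene Map3k5 -0.17 (SE 0.13), all with overlap.

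**Figure D5:**
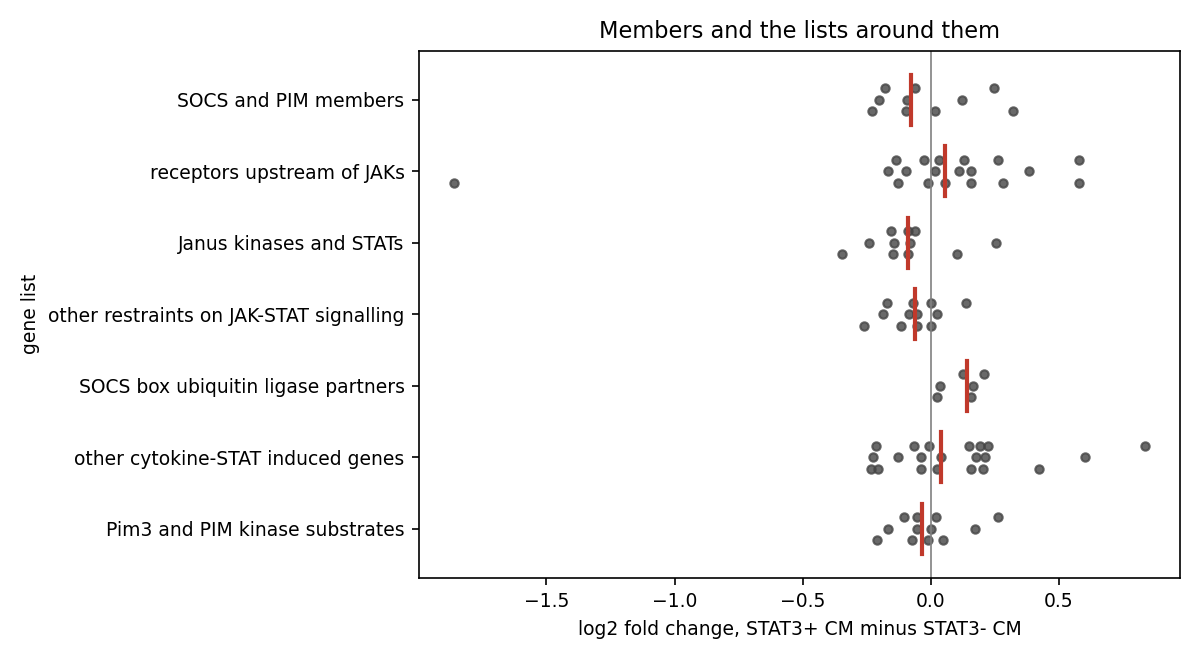
Log2 fold change, STAT3+ CM minus STAT3- CM (x axis), of the 10 members and of the tested genes of the 6 lists around them (rows), each point a gene and each red line the median. The members lie between -0.23 and 0.32, and the points farthest out are Il9r among the receptors (-1.86) and Lif among cytokine-induced genes (0.84).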

How the data were processed

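Polyadenylated RNA of 6 libraries was counted per gene by the authors, and the deposited table holds these whole-number counts, 1 column per library. Per the submitters' processing notes, the build was GRCm39 and the tools included Cufflinks 2.2.1, SAMtools 0.1.19, TopHat2 2.0.10, FastQC and Bowtie 1.0.0, while the sources used here do not give the counting program, annotation or use of strand. Genes on the opposite strand overlap Pim1 (Gm26885, mean of 0.720 CPM in STAT3+ CM, against 0.760 in STAT3- CM) and Cish (Gm17040, 0.817 CPM in STAT3+ CM, against 0.809 in STAT3- CM). Gm17041, also opposite to Cish, overlaps it by 479 bases, against 103 for Gm17040, and was not analysed here. The lowest gene total was 40, so lower genes are missing.

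FilterByExpr kept 14319 genes. They were scaled by TMM (factors 0.960 to 1.06) and compared in edgeR 4.0.16 (R 4.3.3) with a robust quasi-likelihood F test, two-sided, with a threshold of 0.05 after Benjamini-Hochberg adjustment over all genes. Standard errors (SE) were derived from F, and the 95% interval takes the fit's degrees of freedom. Centred log2 CPM used a prior count of 2. Exon lengths came from GENCODE M21 (GRCm38). The fits were tested on simulated data. Alternatives used DESeq2 1.42.0, limma 3.58.1, other scalings and filters, the replicate block, and fewer libraries. No 2 libraries agreed within sampling noise (chi-square per gene of at least 21.5). The members and lists were chosen with earlier results of these data known. Named genes were the members, the 3 genes of each list with the smallest p, Stat3, Stat5a, Stat5b, Pim3 and the 3 genes nearest in pattern to Cish, Socs3 and Pim1. Il6st was named after its values were seen. A gene that this rule names is not reported here.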

Additional observations from a re-analysis of the deposited data

How the results depend on the processing

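In 17 alternatives 0 of the 10 members were called, and Cish, Socs1, Socs2, Socs3, Socs4 and Socs7 kept the sign of their log2 fold change. Over all genes DESeq2 called 48, limma-voom with sample quality weights 14, edgeR 10 when both outlying libraries, STAT3+ CM replicate 1 and STAT3- CM replicate 3, were dropped, and 0 to 18 with 1 library left out. The sign of Socs5 turned under quality weights (0.0024) and without both libraries (0.12), and with 1 library left out its value ran from -0.25 to 0.016. That of Socs6 turned under library totals (-0.025), quality weights (-0.018) and without both libraries (-0.014), with -0.044 to 0.099 over single libraries. With 1 library left out Pim1 ran from -0.012 to 0.39 and Pim2 from -0.20 to 0.011. Among receptors 1 gene, Il9r, was called by DESeq2 and 1 under quality weights, with 0 to 1 over single libraries, where the median ran from 0.011 to 0.19. Among cytokine-induced genes 1, Lif, was called by DESeq2 and 1 under quality weights, and the median ran from 0.045 to 0.14 over single libraries. The median of Pim3 and the PIM substrates was -0.080 under library totals and ran from -0.042 to 0.0031 over single libraries, and that of the other restraints from -0.13 to -0.0032. Under library totals the median log2 fold change over all genes was itself -0.042, against 0.00076 in the main fit. The cause of the changes between settings was not tested. The deviations of same-numbered libraries were positively correlated across genes for numbers 2 (0.281) and 3 (0.182) and negatively for number 1 (-0.261), and the numbers were not taken as pairs. With deviations from the mean of only 3 libraries per group, these values cannot decide whether libraries were paired. The replicate block gave 0 calls over all genes and 0 among the members, with a log2 fold change of 0.33 for Socs3. The lowest count of a member in any library was 568, and the widest interval of a member was that of Socs3.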
